A study of Gallus gallus with 36 samples.

Results

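The chicken pineal transcripts described here had their highest level at circadian time (CT) 16, which is 4 h into the subjective night. They were chosen by a rule with 4 conditions from pineal CPM, the count of a transcript scaled to its library total. The mean over the 18 pineal libraries was at least 5 CPM, the highest of the 6 time means was at CT16, the highest time mean was at least 1.8 times the lowest, and all 3 CT16 libraries lay above all 3 libraries of the lowest time. The rule took 245 of the 23352 transcripts in the table and of the 12495 with a pineal mean of 5 CPM or more. They belong to 235 Ensembl genes, and 223 of them carry a gene symbol. Because the pineal values chose the transcripts, their pineal levels are given as a description, with no test, and tests are kept for the retina.

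Chicks were kept from 1 day of age on a light schedule of 12 h on and 12 h off for 9 days. Day 10 was spent in constant darkness, and the glands and eyes were sampled on it at CT0, CT4, CT8, CT12, CT16 and CT20, CT0 being the start of the subjective day. Each pineal library held RNA of 3 pooled glands and each retina library RNA of 1 retina, giving triplicates at each time in both tissues (36 libraries) over a single cycle. The source labels name no strain, sex or treatment other than the light schedule, which all groups shared. Pineal libraries held 6583162 to 9434608 counts and retina libraries 4994387 to 8122277.

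In birds the pineal gland is itself a photoreceptive clock organ. Its pinealocytes carry opsins and relatives of the phototransduction proteins, keep time with a transcriptional feedback loop, and turn tryptophan into serotonin and then, at night, into melatonin. The chicken retina holds a clock of its own, and its photoreceptors share many genes with pinealocytes.

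The pineal identity of the pools was plain in their markers. The summed level of the 4 of 6 pinealocyte markers found in the table (TPH1, AANAT, ASMT and GCH1) ran from 9399 to 34340 CPM, while 6 inner retina markers summed to between 19.2 and 66.3 CPM. A set of 3 libraries stood apart. TTR (transthyretin, made in quantity by choroid plexus), summed over its transcripts, was at 999.9, 1370 and 1613 CPM in CT12 replicates 1 and 3 and CT20 replicate 1, against 23178 to 43978 CPM in the other 15. The summed level of the 7 choroid plexus and ependyma markers, nearly all of it TTR, was 1223 to 1864 CPM in those libraries and 23352 to 44023 CPM in the others. FOLR1, KCNJ13 and CLIC6 were below all 15 others in each of the 3, while AQP1, OTX2 and FOXJ1 were not (AQP1 at 77.8, 102 and 101 CPM, within the 65.5 to 141 CPM of the others). In these pooled glands, fewer cells of a type and less RNA per cell cannot be told apart. None of the 3 is a CT16 library, but CT12 and CT20 can supply the lowest time mean. Low values in these libraries also lower the CT12 and CT20 means, which can leave CT16 as the highest time. With those libraries left out the rule took 324 transcripts, 215 of them among the 245. That run kept only replicate 2 at CT12 and replicates 2 and 3 at CT20. Fewer libraries and TTR content therefore cannot be told apart in the change.

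Of the 245 transcripts, 109 had their lowest time mean at CT0 and 83 at CT4, so that most were low in the first hours of the subjective day and high in the first hours of the subjective night. Another 23 were lowest at CT8, 19 at CT12 and 11 at CT20. The second-highest time was CT12 for 124 and CT20 for 83, and it lay above 90% of the CT16 mean for 125. A curve of 24 h fitted to log2 CPM peaked at a median of CT15.0, with quartiles at CT14.0 and CT16.4. All 3 CT16 libraries exceeded all 15 other pineal libraries for 36 transcripts. With these sampling times, a plateau cannot be told apart from a curve that peaks between neighbouring times. The rule also chose the transcripts by these values, so no shape is read from the counts. The ratio of the highest to the lowest time mean had a median of 2.26, was at least 3 for 63 and at least 5 for 16, and reached 88.4. Just inside the limit of 1.8 were transcripts of PAX7 (1.81), APP (1.81) and ABCB10 (1.81), and just outside were KIF25 (1.796), TRAIL-LIKE (1.79) and C14ORF166B (1.79). A further 849 transcripts met every other condition with a ratio under 1.8.

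**Figure D1:**
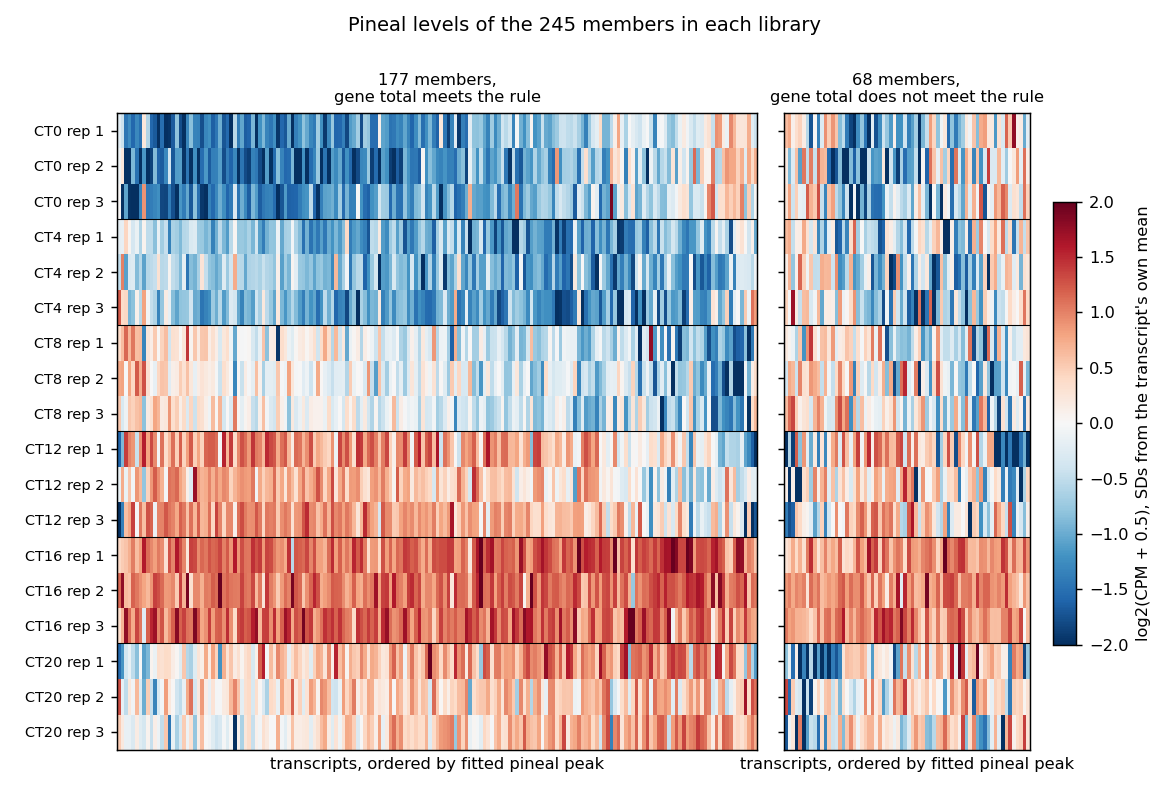
Heat map of the 245 transcripts (columns, ordered by fitted pineal peak) in the 18 pineal libraries (rows, 3 per circadian time), coloured by log2(CPM + 0.5) in SDs from the transcript's own mean. In the left panel (177 transcripts) CT16 is red and CT0 or CT4 blue; in the right panel (68 transcripts whose gene total does not meet the rule) the replicates of a time differ more from each other.

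The table splits a gene's reads between its transcripts by estimation. Whether this placed transcripts in the list was not tested. Of the 245, 138 are the only transcript of their gene and 107 belong to genes with several. For the 138 the gene total is the transcript itself, so it meets the rule by construction. When the counts of all transcripts of a gene were summed, 39 of the 107 still met the rule and 68 did not, and for 50 of those 68 the gene total was highest at a time other than CT16. All 24 transcripts from genes with several that had their lowest mean at CT12 or CT20 failed on the gene total. Over the 68, the gene total had a median ratio of 1.39, but not all these totals were flat. Those of GRID2IP, TMEM38A and FANCM had ratios of 6.27, 3.86 and 2.87, with their highest means at CT20, CT12 and CT20. The FANCM total averaged 397 CPM at CT16 and 399 at CT20. The median SD at the 5 other times was 11.6% of the mean for the 177 transcripts whose gene total also met the rule and 31.0% for the 68. The 68 were also scarcer, with a median pineal level of 13.0 CPM against 27.7 CPM. ANAPC5 (a subunit of the anaphase-promoting ubiquitin ligase) is an example of the 68. One transcript averaged 23.4 CPM at CT16 and 3.86 at CT20, the other 4.12 and 23.3, and their sum varied only 1.12-fold. Transcripts of YEATS2 (a chromatin reader), ATP2A2 (the calcium pump of the endoplasmic reticulum), EBAG9, GTPBP4 (a ribosome assembly GTPase) and the gene labelled gga-mir-1466 had ratios of 4.90 to 52.0, and their gene totals varied 1.08-fold to 1.68-fold. Such transcripts are not described further as genes with a night peak.

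**Figure D2:**
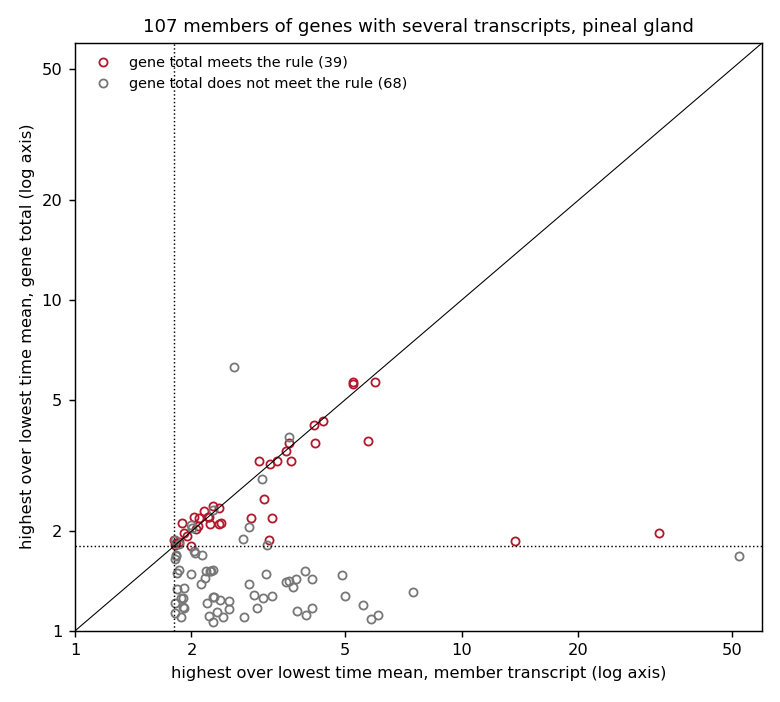
Highest over lowest pineal time mean of the member transcript (x, log axis) and of its gene's total (y, log axis) for the 107 transcripts of genes with several transcripts; dotted lines mark 1.8 and the solid line equality. The 39 whose gene total meets the rule lie near the line apart from transcripts of SMAD2 (32.3) and DOCK4 (13.7), whose totals varied 1.97-fold and 1.86-fold, and most of the 68 others fall under 1.8 on the y axis.

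Among the genes of lipid metabolism stood the widest range of all. G0S2, a small inhibitor of adipose triglyceride lipase, was at 0.515, 0.762 and 0.819 CPM in the CT0 libraries and at 0.915, 0.760 and 0.671 at CT4. It then stood at 4.37, 4.74 and 5.86 CPM at CT8, at 32.0, 27.2 and 28.3 at CT12, at 64.9, 67.0 and 53.4 at CT16, and at 19.7, 13.6 and 15.8 at CT20. No library of CT16 overlapped any library of another time, and the mean of 61.7 ± 7.30 CPM (SD, n = 3, as for all means given with ±) was 88.4 times that at CT0. In the deposited table G0S2 lies on chromosome 26 at chr26:2961681-2961980, 27127 bases from CAMK1G, another of the 245, at chr26:2926681-2934554.

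Genes that build triglycerides and phospholipids had a lower range. DGAT2, which catalyses the last step of triglyceride synthesis, averaged 41.8 ± 5.16 CPM at CT0 and 105 ± 7.06 at CT16. AGPAT3, which acylates lysophosphatidic acid, averaged 60.5 ± 9.60 and 171 ± 2.14 CPM at the same times, and ACSBG2, which activates long fatty acids with coenzyme A, 62.8 ± 6.99 and 259 ± 24.7 CPM. Each had its second-highest mean at CT12. BHMT and DMGDH, which take successive steps in the breakdown of betaine and lie 350 bases apart on chromosome Z, had another time course: BHMT was at 19.0 to 22.7 CPM in the means of CT0 to CT12 and at 42.3 ± 2.52 and 39.1 ± 3.52 at CT16 and CT20. DMGDH was at 7.44 to 9.36 CPM in the 4 earlier means and at 14.8 ± 0.518 and 14.5 ± 0.659 at CT16 and CT20. Of the 23 transcripts in this metabolic group, 13 also met the rule on the gene total.

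The 10 members of light detection are each the only transcript of their gene, so all 10 meet the rule on the gene total by construction. GNB3, the beta subunit of cone transducin in mammals, was at 45.9, 41.3 and 39.7 CPM at CT4 and at 48.7, 53.1 and 45.9 at CT8. It stood at 318, 283 and 276 CPM at CT16 and at 310, 269 and 270 at CT20, with 141, 111 and 86.6 at CT12 and 133, 122 and 122 at CT0. The CT16 and CT20 libraries overlapped, and both times lay above all the rest. OPN4-1, a melanopsin, was at 81.2, 78.8 and 84.9 CPM at CT16, above every other pineal library, of which the highest was 57.8 CPM at CT20. Its CT0 libraries, 36.4, 11.3 and 4.09 CPM, differed 8.90-fold among themselves.

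PDC (phosducin, which binds the transducin beta and gamma subunits) averaged 64.8 ± 9.30 CPM at CT0 and 174 ± 10.8 at CT16, again nearly level with CT20. AIPL1, a chaperone of the photoreceptor phosphodiesterase, averaged 15.1 ± 2.52 CPM at CT4 and 42.5 ± 7.75 at CT16, and BEST1, a calcium-activated chloride channel of the pigment epithelium, 5.23 ± 0.112 and 16.9 ± 3.64. MYO7A, an unconventional myosin of photoreceptors and hair cells, averaged 418 ± 32.1 CPM at CT0, 810 ± 64.9 at CT12, 888 ± 33.1 at CT16 and 513 ± 12.8 at CT20. RDH12 and DHRS3, which reduce retinaldehyde, had ratios of 2.24 and 1.90. RDH12 was almost as high at CT8 as at CT16 (83.9 ± 9.72 and 89.1 ± 9.56 CPM), and DHRS3 was low at CT4 alone (22.1 ± 4.84 CPM against 37.7 to 41.9 at the 5 other times).

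One enzyme of melatonin synthesis was among the 245. DDC, the decarboxylase that makes serotonin from 5-hydroxytryptophan, was at 195, 167 and 190 CPM at CT0, 338, 341 and 289 at CT4 and 492, 477 and 521 at CT8. It stood at 779.8, 767.4 and 808 CPM at CT12, 872, 866 and 979 at CT16 and 606, 603 and 591 at CT20. Its level stepped up at each time to CT16 with no overlap between neighbouring times. Of the clock genes, ARNTL2, a partner of CLOCK in the transcriptional activator, was at 238, 248 and 262 CPM at CT16 and 211, 212 and 232 at CT12, against 69.4 to 144 in all libraries of the 4 other times.

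Transcription factors and their cofactors followed several time courses. LBH, a transcriptional cofactor named for limb bud and heart, was at 107 to 164 CPM in the 9 libraries of CT0 to CT8 and at 736.9, 635 and 553 CPM at CT16. Its CT12 libraries were spread, at 552, 482 and 294 CPM. ETV4, an ETS family factor induced by growth factor signalling, was lowest at CT8, with 16.7, 13.9 and 17.6 CPM for its main transcript, and highest at CT16, with 70.8, 54.8 and 46.3 CPM. CT16 overlapped CT0, where it was at 36.7, 45.1 and 51.4 CPM. SMAD2, which carries activin and TGF-beta signals, averaged 167 ± 21.8 CPM at CT0 and 320 ± 17.8 at CT16 for the transcript that held 93.1% of its counts. PROX1, a homeobox factor, averaged 10.7 ± 2.35 CPM at CT4 and 24.3 ± 1.99 at CT16. PAX7 gave 2 members with ratios of 3.17 and 1.81, and MSX2 rested on a transcript whose gene total did not meet the rule and which was at 2.86, 3.43 and 3.66 CPM in the libraries low in TTR and at 6.01 CPM or more in the others.

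Receptors and their signalling partners made up 20 transcripts. AGTR1, the angiotensin II receptor, was at 4.56, 6.82 and 8.86 CPM at CT0 and 38.8, 45.3 and 36.7 at CT16 for the transcript with more of its counts, and its other transcript ran from a mean of 4.93 ± 3.39 to 25.7 ± 4.82 CPM. AVPR2, a vasopressin-type receptor, averaged 26.3 ± 4.77 CPM at CT0 and 67.2 ± 3.82 at CT16. ADRA2A, an alpha-2A adrenergic receptor of the class that lowers cyclic AMP, was scarce, at 3.15 ± 0.575 CPM at CT0 and 7.42 ± 1.72 at CT16. PDE11A, a phosphodiesterase of cyclic AMP and cyclic GMP, averaged 4.36 ± 1.24 CPM at CT4 and 15.8 ± 1.78 at CT16. RGS4, which shortens G protein signals, gave 2 members that averaged 86.4 ± 14.8 and 107 ± 24.99 CPM at CT0 and 206 ± 15.6 and 202 ± 20.3 at CT16. CAMK1G, a calmodulin-dependent kinase, averaged 303 ± 34.99 CPM at CT0, 525 ± 72.2 at CT12 and 562 ± 42.6 at CT16. AKAP9, an anchor of protein kinase A, averaged 349 CPM at CT0 and between 627 and 648 from CT12 to CT20, and its gene total was highest at CT12.

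Of 18 growth factor transcripts, 16 also met the rule on the gene total, beside 177 of all 245. Genes with a single transcript, which meet it by construction, are in these counts. All 3 CT16 libraries lay above the other 15 for 8 of the 18, beside 36 of all 245. The rule used these values, and no difference between groups was tested. IGFBP1, which binds insulin-like growth factors, was at 1.67, 2.03 and 1.64 CPM at CT0, 12.9, 15.8 and 16.6 at CT12, 20.9, 20.3 and 25.5 at CT16 and 9.09, 8.90 and 5.89 at CT20. It was above every other library at CT16. PAPPA, a protease that frees insulin-like growth factor by cutting its binding proteins, averaged 9.89 ± 1.23 CPM at CT0 and 45.0 ± 2.51 at CT16. HBEGF, a ligand of the EGF receptor family, averaged 13.8 ± 1.59 and 41.8 ± 1.02 CPM, and 2 transcripts of its receptor ERBB4 had ratios of 2.85 and 2.09.

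The phosphatases PTPRO, a receptor type, and DUSP8, which acts on MAP kinases, averaged 61.3 ± 2.01 CPM at CT4 and 82.8 ± 9.46 at CT0 at their lowest and 215 ± 13.4 and 249 ± 20.2 at CT16. NDRG1, a gene of differentiation and stress responses, averaged 337 ± 33.8 CPM at CT0, 909 ± 22.1 at CT16 and 816 ± 41.4 at CT20. NLK, a kinase of the Wnt pathway, had a ratio of 2.13, and PTN (pleiotrophin), a secreted heparin-binding growth factor, one of 2.05. The PTN gene total was nearly level from CT12 to CT20, with a wide spread at CT20. It averaged 112.9 ± 19.4 CPM at CT12, 113.1 ± 4.56 at CT16 and 111.0 ± 64.3 at CT20.

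A group of 21 transcripts, put together by hand from the members, holds exchange factors for small GTPases with cytoskeletal and trafficking genes. MCF2L2, a guanine nucleotide exchange factor, averaged 9.88 ± 1.18 CPM at CT4 and 48.0 ± 2.31 at CT16, and KALRN (kalirin), which acts on Rac, 121 ± 13.4 and 364 ± 20.5. DOCK3, a Rac exchange factor, averaged 625 ± 49.0 CPM at CT4 and stayed above 1000 CPM in the means of CT12, CT16 and CT20. ZDHHC5, which attaches palmitate to proteins, averaged 98.1 ± 11.7 CPM at CT0 and 313 ± 9.32 at CT16. MICAL3, an oxidase of actin, is listed as 2 neighbouring genes on chromosome 1, both with a ratio of 2.45. Of the 21, 20 were lowest at CT0 or CT4.

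Among channels and transporters, ANO4, an anoctamin, averaged 6.01 ± 1.01 CPM at CT0, 31.3 ± 0.9996 at CT12 and 31.7 ± 1.85 at CT16. SLC6A9, the glycine transporter GlyT1, was at 16.5, 17.8 and 14.5 CPM at CT4, 73.5, 52.2 and 62.1 at CT12 and 67.9, 66.7 and 78.6 at CT16. GJD2 (connexin 36), the gap junction protein of neurons, averaged 357 ± 68.8 CPM at CT0 and 858 to 946 CPM in the means of CT8, CT12 and CT16. SLC30A8, the zinc transporter of insulin granules in mammals, was at 37.0 to 49.9 CPM in the means of CT0 to CT12 and at 83.0 ± 0.711 and 76.9 ± 7.14 at CT16 and CT20. CACNA1H, a T-type calcium channel, averaged 6.34 ± 2.17 CPM at CT4 and 17.8 ± 0.881 at CT16, while KCNH5, a potassium channel, was at 3.61 to 7.24 CPM throughout. KCNAB1, a potassium channel beta subunit, averaged 7.12 ± 1.61 CPM at CT4 and 37.3 ± 3.06 at CT16. AQP1, a water channel that is among the 7 choroid plexus and ependyma markers, averaged 74.3 ± 8.72 CPM at CT8 and 137 ± 4.51 at CT16. The transcripts of CACNA1D, an L-type calcium channel, and LAMB2, a laminin chain, did not meet the rule on their gene totals. The LAMB2 total varied 1.24-fold. The CACNA1D total averaged 239 ± 21.0 CPM at CT0, 555 ± 36.0 at CT12, its highest time, and 520 ± 38.5 at CT16.

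Adhesion, guidance and matrix genes gave 26 transcripts, 17 of which met the rule on the gene total. TSPAN7, a tetraspanin, averaged 169 ± 4.73 CPM at CT0 and 426 ± 21.99 at CT16, and FREM2, a basement membrane protein, 25.7 ± 2.45 and 59.4 ± 12.9. Of the 13 cell division transcripts, 7 were lowest at CT8, 3 at CT4, 2 at CT12 and 1 at CT0, and 6 met the rule on the gene total. Those 6 were the kinetochore proteins CENPF and CENPE, the spindle proteins ASPM and DLGAP5 and the kinase PBK, all lowest at CT8, and the DNA polymerase POLQ, lowest at CT4. CENPF averaged 9.76 ± 3.34 CPM at CT8 and 31.6 ± 3.54 at CT16, with 29.1 ± 2.06 at CT0, and ASPM 11.1 ± 2.28, 22.8 ± 2.41 and 21.3 ± 0.460. Of the 5 cilia genes, DLEC1, CCDC135 and a transcript of RPGRIP1L were lowest at CT12, the last with a gene total that varied only 1.21-fold. DLEC1 was at 5.86, 8.05 and 10.2 CPM in the libraries low in TTR and at 10.8 to 25.04 CPM in the 15 others. C6ORF183 was also below all 15 others in those libraries. This held of no member but C6ORF183, DLEC1 and MSX2 (1.22% of the 245, against 1.46% of the expressed transcripts). At CT20, replicates 2 and 3 of DLEC1 were at 25.04 and 21.6 CPM, against 19.9, 24.6 and 21.6 at CT16. C6ORF183 was at 17.1 and 12.9 CPM there, against 12.4, 16.3 and 12.1 at CT16. MSX2 was at 13.4 and 11.3 CPM there, against 15.5, 15.6 and 16.8 at CT16. The part of those libraries' low TTR in the time course of these members was not tested.

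Protein breakdown genes gave 11 transcripts, of which 6 met the rule on the gene total, and 55 transcripts fell in no group named here, 22 of them without a symbol. Among the latter 55, KIAA1191 averaged 252 ± 15.2 CPM at CT0, 583 ± 18.7 at CT12 and 585 ± 60.4 at CT16, and TCP11L2 averaged 223 ± 12.5 at CT0 and 465 ± 18.1 at CT16. A transcript of FAM89A with 18.4% of its counts averaged 4.46 ± 0.938 CPM at CT4 and 25.5 ± 9.53 at CT16. The FAM89A gene total averaged 38.2 ± 5.66 and 123 ± 9.41 CPM at these times.

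**Figure D3:**
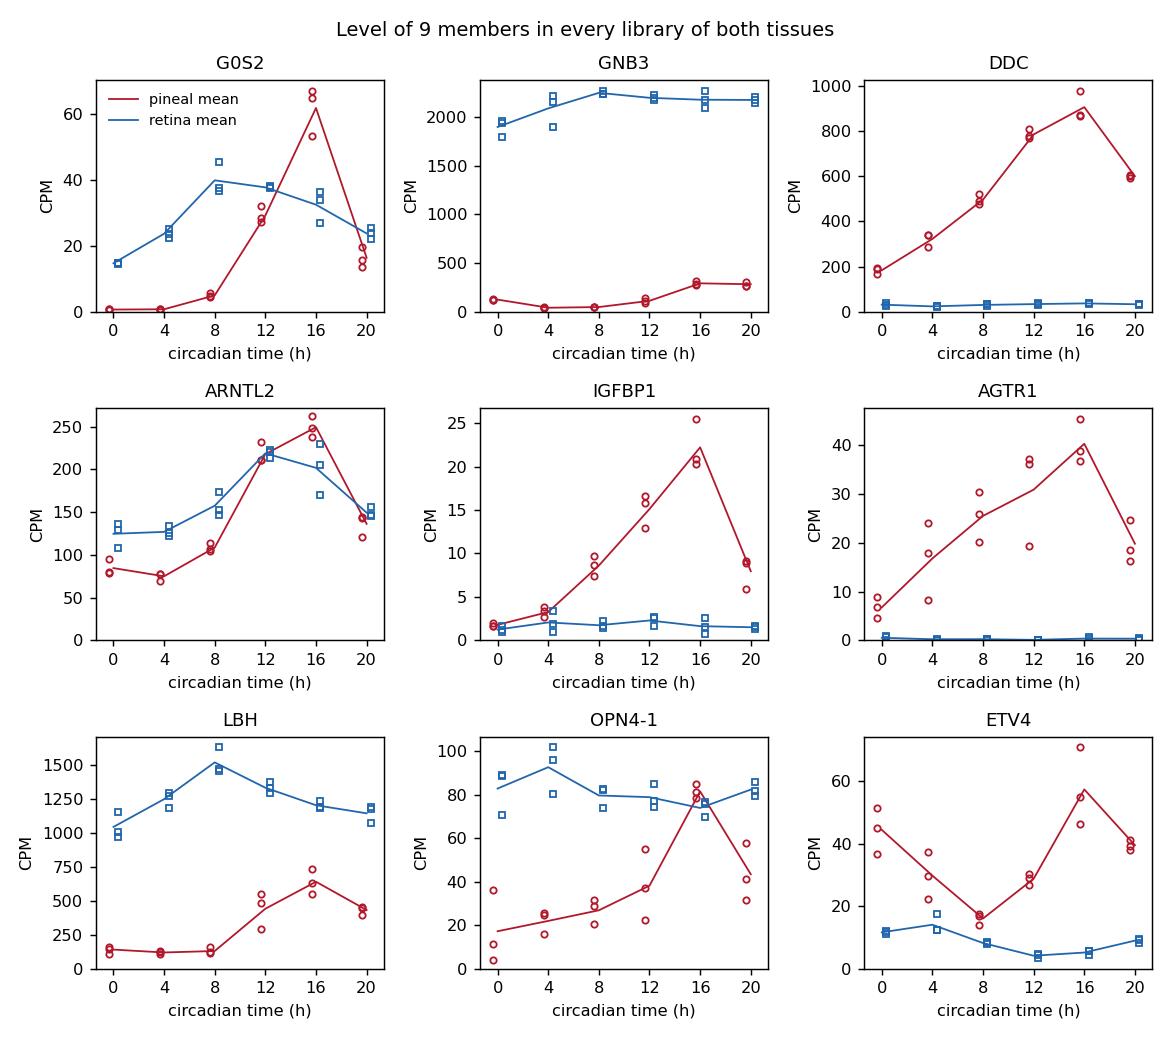
Level in CPM (y, linear from 0) by circadian time in h (x) of 9 genes of the list in every pineal (red circles) and retina (blue squares) library, with lines through the time means of 3 libraries. In the pineal gland all are highest at CT16; in the retina ARNTL2 follows a like course, G0S2 and LBH are highest at CT8, and ETV4 is lowest at CT12 and CT16.

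The retina offers measurements that the rule did not use. Its mean exceeded the pineal mean for 109 of the 245 (44.5%, against 44.7% of expressed transcripts). The pineal mean was more than 10 times the retina mean for 31 (12.7%, against 6.15%), and the reverse held for 4. Among them were AVPR2 (49.0 CPM in the pineal gland, 0.194 in the retina), SLC30A8 (55.6 and 0.228) and AGTR1 (15.4 and 0.0669 for its less counted transcript), with MSX2 and SMC2. Over the same 18 libraries per tissue the retina held 14.1 times the pineal CPM of GNB3, 13.4 times that of SLC6A9, 13.0 times that of KCNH5, 10.5 times that of the PCDHAC2 transcript (a protocadherin) and 8.62 times that of PROX1. Among the 219 that passed a filter on low retina counts, the highest of the 6 retina time means was at CT16 for 54 (24.7%, against 20% of all tested) and at CT12 for 57 (26.0%, against 18.3%).

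For rhythm in the retina, 219 of the 245 passed the filter on low counts there. Of these 219, 50 (22.8%) passed edgeR's test of a 24 h curve at an adjusted p of 0.05, against 6.29% of all 14956 transcripts tested and 7.07% of those with a pineal mean of 5 CPM or more. The share was 30.3% (47 of 155) among transcripts whose gene total also met the rule and 4.69% (3 of 64) among the rest. By the same rule for other peak times, the share rhythmic in the retina was 28.0% of 264 tested transcripts for CT0, 7.14% of 140 for CT4, 2.13% of 94 for CT8, 31.6% of 234 for CT12 and 13.7% of 227 for CT20; the difference between these lists was not tested. By group, 11 of 21 exchange factor, cytoskeletal and trafficking transcripts were rhythmic in the retina, 6 of 17 growth factor transcripts, 6 of 23 metabolic, 5 of 22 channels and transporters, 5 of 15 melatonin, clock and transcription factor transcripts and 4 of 10 light detection genes. The counts were 4 of 25 for adhesion, 2 of 16 for receptors, 1 of 11 for protein breakdown, 0 of 6 for cell division, 0 of 4 for cilia and 6 of 49 for transcripts in no group. No difference between groups was tested.

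The fitted retina peak of the 50 had a median of CT12.3 and lay between CT8 and CT12 for 16 and between CT12 and CT16 for 25. Their fitted pineal peak, with a median of CT14.7, was set near CT16 by the rule, so no order of the tissues in time is read from the pair. The fitted retina amplitude, from the middle of the curve to its peak in log2 units, had a median of 0.27. The pineal median of 0.62 was raised by the rule, and nothing is read from that difference either. Both curves rest on 6 times of a single cycle.

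The 10 named transcripts with the smallest p for rhythm in the retina were NLK, PTPRO, MCF2L2, PTN, ETV4, ARNTL2, ZDHHC5, ABCG4 (a sterol transporter), DGAT2 and NDRG1. MCF2L2 was at 98.7, 90.5 and 102 CPM in the retina at CT4 and at 175, 178 and 165 at CT16 (edgeR adjusted p for rhythm = 1.74e-07). PTPRO was at 236, 204 and 224 CPM at CT4 and 329, 326 and 299 at CT16 (edgeR adjusted p = 6.59e-08), with no overlap between the times. ARNTL2 averaged 127 ± 6.01 CPM at CT4, 219 ± 5.14 at CT12 and 202 ± 29.7 at CT16 in the retina (edgeR adjusted p = 2.91e-06). G0S2 was rhythmic in the retina too (edgeR adjusted p = 1.32e-05), but between 14.7 ± 0.261 CPM at CT0 and 39.8 ± 4.92 at CT8, a range of less than 3-fold, and its CT16 libraries were at 27.0, 36.4 and 33.9 CPM.

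Several genes with a strong pineal time course did not pass the rhythm test in the retina. GNB3 was at 1796 to 2269 CPM in all 18 retina libraries (edgeR adjusted p = 0.166), DDC at 22.6 to 41.2 CPM (edgeR adjusted p = 0.102), and IGFBP1 at 0.779 to 3.34 CPM (edgeR adjusted p = 0.66). PDC, also a photoreceptor gene, did not pass either (edgeR adjusted p = 0.704). These values do not show that the retina levels are constant.

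**Figure D4:**
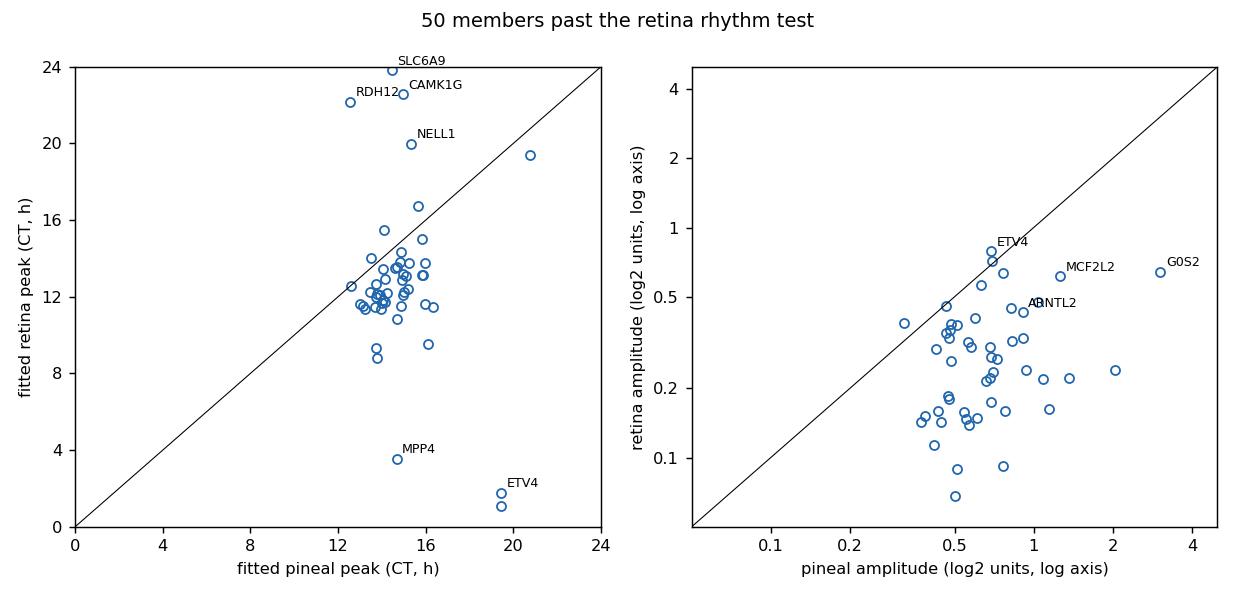
Fitted peak (left, in h of circadian time) and amplitude (right, in log2 units on log axes) in the pineal gland (x) and retina (y) of the 50 transcripts past the retina rhythm test, with the line of equality. The rule set the pineal peak and raised the pineal amplitude. Of the 50 retina peaks 16 lie between CT8 and CT12 and 25 between CT12 and CT16, and those of ETV4, MPP4, RDH12, CAMK1G and SLC6A9 lie apart on the left.

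Setting CT16 against CT4 in the retina, 12 of the 219 were higher (5.48%, against 0.508% of all tested) and 2 were lower (0.913%, against 1.02%). All 3 CT16 libraries lay above all 3 CT4 libraries for 51 of 219 (23.3%, against 8.93%), and below them for 6 (2.74%, against 6%). In the list by the same rule for CT12, 6.84% of 234 tested were higher and 25.2% had all 3 libraries above. In the lists for CT0, CT4, CT8 and CT20, 0.379%, 0%, 2.13% and 1.76% were higher. All 3 lay above for 4.17%, 5.71%, 9.57% and 10.6% of them. The difference between these lists was not tested. The median difference over the 219 was 0.10 on the log2 scale and 0.002 over all transcripts tested. The 12 were ACSBG2, MCF2L2, ARNTL2, KLHL25 (an adaptor of a ubiquitin ligase), PTPRO, DGAT2, PTN, NLK, NDRG1, SLC29A1 (a nucleoside transporter), ACAP3 (an Arf GTPase activator) and KALRN. ACSBG2 differed most, by 1.18 ± 0.19 (log2, SE; edgeR adjusted p = 0.00309), from 70.4 ± 2.10 CPM at CT4 to 162 ± 33.3 at CT16. MCF2L2 followed with 0.81 ± 0.06 (edgeR adjusted p = 2.37e-06) and ARNTL2 with 0.65 ± 0.10 (edgeR adjusted p = 0.00181), and KALRN differed least, by 0.26 ± 0.04 (edgeR adjusted p = 0.00608). The call of DGAT2 was lost without retina CT16 replicate 2, CT16 replicate 3 or CT4 replicate 2 (edgeR adjusted p = 0.0574 to 0.0892), and that of NDRG1 without CT4 replicate 3 (edgeR adjusted p = 0.0535).

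The 2 that were lower were ETV4 and MPP4, a scaffold protein of photoreceptor synapses. The main ETV4 transcript was at 12.4, 17.5 and 12.4 CPM in the retina at CT4 and at 5.60, 4.34 and 5.65 at CT16, a difference of -1.47 ± 0.16 (log2, SE; edgeR adjusted p = 0.000113). Its fitted peak was at CT1.78 in the retina and CT19.5 in the pineal gland. MPP4 differed by -0.38 ± 0.09 (edgeR adjusted p = 0.0411) in the retina, where it averaged 255 ± 9.72 CPM at CT4 and 198 ± 13.4 at CT16, and in the pineal gland it averaged 134 ± 7.07 and 212 ± 9.33 CPM. The MPP4 call was lost when any 1 of 8 retina libraries was left out.

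Genes of the same pathways outside the list show what else stood high or low in the gland at CT16. For these, which were not chosen by the rule, the pineal tests apply: 116 of 245 tested genes from 12 pathway lists were rhythmic in the pineal gland, where 21.1% of all tested transcripts were. At CT16, 63 of the 245 were higher than at CT4 and 27 of the 245 lower, beside 7.58% and 5.25% of all tested. The lists were drawn up with earlier results of these data known, and the genes in the list of 245 are left out of the counts. Each list gene is represented by its most counted transcript, while the background holds every tested transcript, so the shares are of unlike sets.

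Of 8 other melatonin synthesis genes, 4 were higher at CT16 and 1 lower. AANAT, the acetyltransferase that times melatonin, averaged 343 ± 37.8 CPM at CT4, 950 ± 42.0 at CT16 and 1447 ± 69.5 at CT20 (CT16 minus CT4 1.499 ± 0.097 on the log2 scale, SE, edgeR adjusted p = 8.22e-08). TPH1, the first enzyme, and GCH1 and PTS, which make its cofactor tetrahydrobiopterin, were higher as well, by 1.68 ± 0.13, 1.04 ± 0.07 and 0.30 ± 0.09 (log2, SE). ASMT, the last enzyme, was lower, with a difference of -0.997 on the log2 scale (edgeR adjusted p = 1.7e-05). Of the enzymes of the pathway DDC alone had its highest mean at CT16 with a ratio over 1.8.

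Of 18 other clock genes, 7 were higher and 5 lower. ARNTL, NPAS2, CLOCK and NFIL3 were higher by 2.32 ± 0.11, 2.96 ± 0.21, 0.87 ± 0.08 and 1.85 ± 0.12 (log2, SE), and each had its highest mean at CT12. The rule set the highest time of the ARNTL2 member at CT16, so no order between them is read. Another ARNTL2 transcript, outside the list, averaged 60.9 CPM at CT12 and 59.3 at CT16. PER2, PER3 and BHLHE40, repressors of the loop, were lower, with differences of -3.44, -3.61 and -1.37 on the log2 scale. Not all repressors were lower: CRY1 was higher by 0.30 ± 0.05, while CRY2 had a difference of -0.37 ± 0.06. Of 21 other phototransduction genes 4 were higher and 3 lower. PPEF2, a photoreceptor phosphatase, was higher by 2.62 ± 0.12 and peaked at CT12. The channel subunits CNGB1 and CNGA1 were higher too. CNGB1 averaged 33.7 ± 5.71 CPM at CT4 and 69.3 ± 6.38 at CT16, and CNGA1 20.2 ± 5.13 and 39.6 ± 3.42. GNB1 was higher by 0.35 ± 0.05. Among the lower genes, the channel subunit CNGB3 had a difference of -1.72 ± 0.15 and the phosphodiesterase subunit PDE6B one of -1.26 ± 0.15. Both were low at CT16 when GNB3 and PDC were high. Of 13 other visual cycle genes 3 were higher and 3 lower, among them RBP4, a retinol carrier, with a difference of -2.64 on the log2 scale.

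All 16 other sterol synthesis genes tested were rhythmic and 13 of 16 were higher at CT16 than at CT4, with none lower, yet none met the rule: SC4MOL, a demethylating oxidase of the pathway, averaged 142 ± 2.96 CPM at CT4, 346 ± 25.2 at CT12 and 283 ± 23.7 at CT16. Of 16 other triglyceride and lipid droplet genes 6 were higher and 3 lower. GPAM, which starts glycerolipid synthesis, was higher by 0.49 ± 0.07, and PLIN2 and CIDEA, proteins of the lipid droplet coat, were lower, with differences of -0.29 and -0.61 on the log2 scale. Of 20 other basement membrane genes 6 were higher and none lower, or 6 and 1 without the libraries low in TTR. LAMB3, a laminin chain, averaged 0.146 ± 0.152 CPM at CT4 and 8.43 ± 1.43 at CT16 (5.83 ± 0.80, edgeR adjusted p = 0.000148) and was kept out of the 245 by the floor of 5 CPM. COL4A2, a collagen of the same membrane, was higher by 0.78 ± 0.07.

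Of 36 other calcium and potassium channel genes 7 were higher and 2 lower, with CACNA1I, a T-type channel like CACNA1H, higher by 1.54 ± 0.19. Of 13 other pineal and photoreceptor transcription factors 4 were higher and none lower, LIM3 by 1.29 ± 0.11 and OTX2 by 0.47 ± 0.07. Of 33 other cyclic AMP genes 3 were higher and 2 lower, of 25 other amino acid and amine transporters 3 and 4, and of 26 other exocytosis genes 3 and 4. Among the 2 lower cyclic AMP genes was ADRA2C, an adrenergic receptor of the class of ADRA2A. It averaged 224 ± 16.7 CPM at CT4 and 164 ± 7.80 at CT16, a difference of -0.42 ± 0.09. No difference of these lists from the background was tested.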

How the data were processed

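Total RNA was prepared with TRIzol followed by RNeasy kits and read on Illumina instruments, per the labels' protocols. Trimmomatic, TopHat and Cufflinks appear in the submitters' processing notes, with no version. A genome build, and whether counting used strand, are not given in the sources used here; overlapping genes such as TERF1 and SBSPON may therefore share reads. The authors deposited estimated counts per Ensembl transcript, 68.1% of them whole numbers, together with FPKM for the same 36 libraries, which served as an alternative. No label ties replicates to separate rearings, so p-values measure the spread between these pools and retinas, which may be technical.

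CPM is the estimated count scaled to the library total. The members and lists were chosen with earlier results of these data known. For edgeR 4.0.16 in R 4.3.3 the estimated counts were rounded, filtered by filterByExpr on time and scaled by TMM. Rhythm was tested with a quasi-likelihood test on 24 h harmonic terms, and CT16 against CT4 in a fit with 6 time means, using every library of that tissue. Benjamini-Hochberg adjustment ran across all transcripts tested, with a threshold of 0.05. An SE is the difference over the square root of F. Fitted peaks and amplitudes come from least squares on log2(CPM + 0.5). DESeq2 1.42.0 and limma 3.58.1, on log2(FPKM + 0.1) and log2(FPKM + 1), were alternatives. The tests were tried on simulated data first. Of 100 transcripts given a 2-fold range, the rhythm test recovered 63 in the pineal gland and 79 in the retina. CT16 against CT4 recovered 58 and 69. With a 4-fold range these counts were 81, 90, 80 and 85 of 100. Figures were drawn with matplotlib 3.10.9.

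The naming rule took members with a symbol that are in a pathway or cell type list, the 20 largest ratios, the 10 highest pineal means, the 3 nearest the ratio limit on each side, the 10 smallest p for retina rhythm and the 5 largest tissue ratios each way. Other genes were chosen after their values were seen. Pathway lists take each symbol's transcript with the most counts. Some items the rule names are not reported here.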

Additional observations from a re-analysis of the deposited data

Results flagged for a closer look

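ETV4 and OPN4-1 had all 3 CT16 libraries above all 3 CT4 libraries in the pineal gland and all 3 below them in the retina. They were not the only members with opposite directions. MPP4, with the values given above, was higher at CT16 than at CT4 in the pineal mean and lower in the retina, where it passed edgeR's test. The difference between the tissues was not tested, because the pineal values chose these transcripts. In the retina CT16 minus CT4 was -1.47 on the log2 scale for the main ETV4 transcript, which passed edgeR's test, and -0.35 for OPN4-1, which did not (edgeR adjusted p = 0.108).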

How the results depend on the processing

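The number of member transcripts was 439 with a floor of 1 CPM and 438 with a ratio of 1.5, by construction of the looser rules. It stayed within 1.5 times of 245 with TMM-scaled CPM (289, of which 241 shared), FPKM (220, 205 shared), a floor of 10 CPM (189), a ratio of 2.0 (179), gene totals (177 genes) and without the libraries low in TTR (324, 215 shared), and ran from 229 to 288 when each pineal library was left out. Members rhythmic in the retina, 50, ran from 36 (time as 6 levels) to 59 (DESeq2), and from 42 to 52 with each retina library left out. Members higher at CT16 in the retina, 12, came to 25 with DESeq2, the cause of which was not tested, and ran from 8 to 15 with a library left out. Members lower there came to 1 with the replicate block and from 1 to 2 with a library left out: ETV4 stayed and MPP4 was lost with the block (adjusted p = 0.0759). Restricting the retina counts to members whose gene total meets the rule, or to those that meet it without the libraries low in TTR, both chosen after seeing the data, gave 47 and 48 rhythmic, 12 and 12 higher and 2 and 2 lower. Pathway genes in the pineal gland ran from 108 to 121 rhythmic, 49 to 64 higher and 22 to 30 lower with each library left out.

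Deviations of same-numbered libraries correlated at -0.11 to 0.38 in the pineal gland (mean 0.024) and -0.09 to 0.08 in the retina (mean 0.002). The correlation was above 0.1 for 7 of 45 such pairs in the pineal gland and 0 of 45 in the retina. Whether libraries of the same number shared a batch was not tested. With the replicate block 49 members were rhythmic in the retina and 10 higher. The calls for rhythm of DOCK3 and TCP11L2 in the retina were lost under 12 and 17 alternatives, and the CT16 calls of DGAT2 and NDRG1 under 3 and 1. Counting error is largest, relative to the mean, near the floor of 5 CPM.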
